A study of Mus musculus with 4 samples.

Results

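Calpains are calcium-activated cysteine proteases of the cytosol. Capn1 and Capn2 encode the large subunits of the classical calpains, Capns1 the small subunit that both need, and Capn3 a calpain named for skeletal muscle, of which rodent lenses make their own splice variants. Cast encodes calpastatin, the inhibitor of the classical calpains. In rodent lenses calpains cut crystallins and membrane skeleton proteins when calcium is high, and they are known for their part in experimental cataract. The genes Capn1, Capn2, Capn3, Capns1 and Cast were looked up by symbol in the expression tables. Of these 5 symbols 4 had a row of their own, among 21384 symbols in all, and each of the 4 had a single locus. Cast had none: its locus is listed under the joined name Cast,Erap1 and is given here as a separate, shared value.

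All lenses were from transgenic C57BL/6 mice. The CRYAAN101D line (N101D below) makes an alpha A crystallin in which N101D mimics a deamidated asparagine, and the CRYAAWT line (WT below) makes the normal alpha A crystallin. Both lines carry a transgene, so no lens without one was compared. There was 1 library each for N101D at 4 months, WT at 4 months, N101D at 2 months and WT at 2 months. The sources used here give neither the transgene's promoter nor the number of founder lines, the lenses per library or the sex of the mice.

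Levels are given as FPKM, a fragment count divided by the transcript's length and the library's mapped fragments, so that levels of different genes can be compared per length. Steps in the low FPKM values put the depth between 24.6 M fragments, in N101D at 2 months, and 52.8 M, in N101D at 4 months. Lens fiber markers were abundant in every library, with summed FPKM of 50946 to 135452. Pigmented iris and ciliary markers summed to 379 FPKM in N101D at 4 months, 357 in WT at 4 months, 43.0 in N101D at 2 months and 410 in WT at 2 months. At 2 months Xist stood at 12.9 FPKM in N101D, against 0.0744 in WT, and Y-linked Eif2s3y at 0.122 against 11.6 FPKM. The N101D library of 2 months thus stands apart in sex-linked and pigmented tissue genes, and genotype at that age cannot be told apart from sex. Each age also looks like a separate estimation by the authors, because the status given to a locus was the same within an age and differed between ages for 2788 loci. Differences between ages therefore rest on separately made tables.

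Per length, the calpain genes stood in the same order in every library, and no neighbours in that order overlapped. Capns1 was highest, at 105 FPKM in N101D at 4 months, 115 in WT at 4 months, 116 in N101D at 2 months and 100.2 in WT at 2 months. By its mean of 109 FPKM it ranked 220 of 11311 genes that reached 1 FPKM in a library. Capn2, the calpain that needs millimolar calcium in the test tube, followed at 32.0 FPKM in N101D at 4 months, 32.4 in WT at 4 months, 29.7 in N101D at 2 months and 32.9 in WT at 2 months. Its highest library exceeded its lowest by 1.11-fold, the smallest spread among the 4 genes. The shared Cast,Erap1 locus came next, at 5.58 and 4.91 FPKM in N101D and WT at 4 months and 5.39 and 5.37 FPKM in N101D and WT at 2 months.

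Capn1, the calpain active at lower calcium, was listed at 3.26 FPKM in N101D at 4 months, 2.58 in WT at 4 months, 2.81 in N101D at 2 months and 3.21 in WT at 2 months. Capn2 thus exceeded Capn1 by 9.82-fold in N101D and 12.6-fold in WT at 4 months, and by 10.6-fold in N101D and 10.2-fold in WT at 2 months. Capns1, whose product pairs with either large subunit, exceeded the sum of Capn1 and Capn2 by 2.98-fold and 3.30-fold in N101D and WT at 4 months and by 3.56-fold and 2.78-fold in N101D and WT at 2 months. Capn3 was lowest, at 0.199 FPKM in N101D lenses and 0.175 in WT lenses at 4 months, against 1.35 in N101D and 1.38 in WT at 2 months. Capn3 was the only one of the 4 genes whose libraries fell into separate ranges by age, and it did not reach 1 FPKM at 4 months. In bulk lens RNA, fewer cells of a type and less RNA per cell cannot be told apart.

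**Figure D1:**
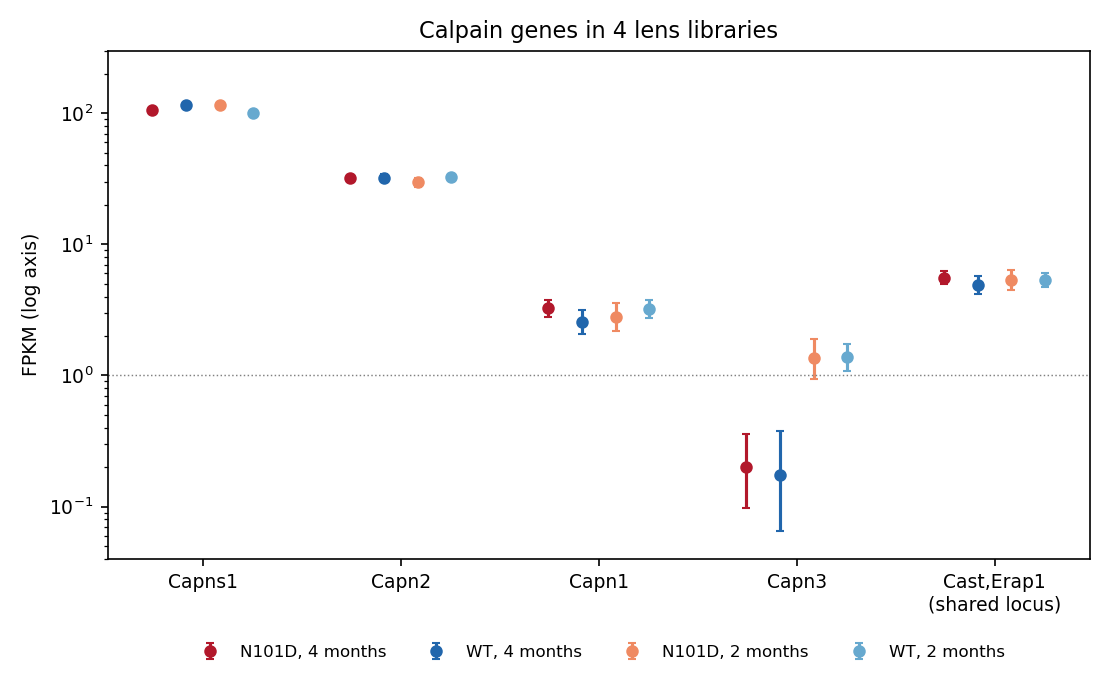
FPKM (log axis) of Capns1, Capn2, Capn1, Capn3 and the shared Cast,Erap1 locus in the 4 libraries; points are single libraries, bars are 95% Poisson counting intervals for reads on 1 kb of effective length, and the dotted line marks 1 FPKM. Capns1 lies between 100.2 and 116 FPKM and Capn2 between 29.7 and 32.9, while Capn3 is near 1.4 FPKM at 2 months and 0.2 at 4 months in both genotypes.

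The listed loci lie on mm9. Capns1 (XLOC_035692) spans chromosome 7 from 30971960 to 30980181, Capn2 (XLOC_001291) chromosome 1 from 184397383 to 184447892, and Capn1 (XLOC_019849) chromosome 19 from 5988544 to 6015873. Capn3 (XLOC_021387) spans chromosome 2 from 120289328 to 120330655. None of these 4 spans was overlapped by another listed locus. The Cast,Erap1 locus (XLOC_010283, chromosome 13, 74777312 to 74946291) shares its whole span with a locus named Erap1, for an aminopeptidase that trims peptides for antigen presentation. That Erap1 locus stood at 1.88 FPKM in N101D lenses and 2.75 in WT lenses at 4 months, and at 2.06 in N101D lenses and 3.23 in WT lenses at 2 months. Erap1 was lower in N101D at both ages while the shared locus was not, but the sources used here do not say how reads were divided between them, so no level of calpastatin alone is reported.

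The question of the study's design is which genes differ between N101D and WT lenses at each age. For the calpains, genotype differences stayed below 2-fold at both ages on the log2(FPKM + 1) scale, which understates differences of genes with low FPKM. At 4 months Capn1 stood at 3.26 FPKM in N101D lenses and 2.58 in WT, a difference of 0.25, and 26.1% of all genes had a larger one in size. Capns1 differed by -0.13 (105 FPKM in N101D, 115 in WT), Capn2 by -0.01 and Capn3 by 0.03. None of these 4 genes reached a 2-fold difference at 4 months, which is near the background of 0.62% of 11284 genes. The shared Cast,Erap1 locus differed by 0.16. Tissue markers differed at this age too: retina neuron markers by a median of -0.70 and blood genes by 1.35. Smooth muscle markers differed by 0.77 and cornea and conjunctiva markers by 0.69. Medians were -0.01 for pigmented tissue, 0.29 for leukocyte and -0.05 for vessel markers. The part of these tissues in the calpain values at 4 months was not tested.

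At 2 months Capns1 was the calpain gene with the largest genotype difference, 0.21, at 116 FPKM in N101D lenses and 100.2 in WT lenses. Capn1 (2.81 FPKM in N101D, 3.21 in WT) and Capn2 (29.7 in N101D, 32.9 in WT) both differed by -0.14, and Capn3 by -0.02. The median of all genes was -0.09, so both large-subunit genes lay close to it. None of the 4 was 2-fold different, which is near the background of 4.04% of 11291 genes (0.407% higher and 3.63% lower in N101D). The shared Cast,Erap1 locus differed by 0.00. The direction of Capns1 depended on scaling: with library totals made equal without the crystallins it stood at -0.27, Capn1 at -0.49, Capn2 at -0.60, Capn3 at -0.28 and the median of all genes at -0.46. With quantile normalization Capn1 stood at 0.00 and Capn3 at 0.18 at this age. Pigmented tissue markers differed at 2 months by a median of -2.46, with 7 of 11 at least 2-fold lower in N101D, leukocyte markers by -1.09 and vessel markers by -1.47, and their part in the calpain values was not tested.

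Counting error alone can be set beside these differences by taking each FPKM as reads on 1 kb of effective length. For Capn1 the log2 ratio of FPKM, N101D over WT, was 0.34 at 4 months with a 95% exact binomial interval of -0.03 to 0.73, and -0.19 at 2 months with an interval of -0.63 to 0.22. The Capn2 ratio had intervals of -0.12 to 0.09 at 4 months and -0.27 to -0.02 at 2 months. For Capns1 the intervals were -0.19 to -0.07 at 4 months and 0.14 to 0.27 at 2 months. The Capns1 intervals excluded 0 at both ages, with opposite signs, and those of Capn1 held 0 at both. Transcript lengths were not used, so these intervals are too wide for a transcript longer than 1 kb and too narrow for a shorter one. Whether an interval holds 0 can therefore depend on the length taken, and Capns1 and Capn1 cannot be contrasted by it. The opposite signs of Capns1 depended on scaling: its differences were -0.16 at 4 months and -0.27 at 2 months with equal totals, and -0.01 and 0.18 with quantile normalization. These intervals hold no variation between lenses, and with 1 library per group that variation was not measured.

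**Figure D2:**
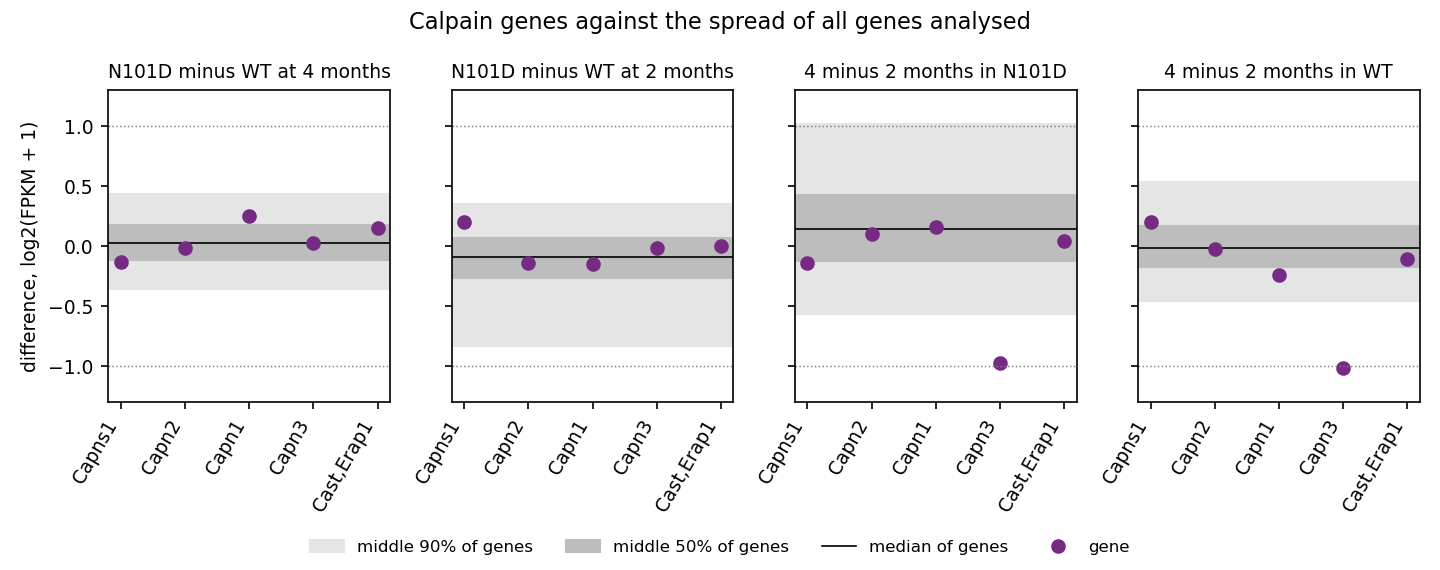
Differences on the log2(FPKM + 1) scale (vertical axis) of the calpain genes and the shared Cast,Erap1 locus in 4 comparisons of single libraries; grey bands hold the middle 90% and 50% of all genes analysed, the black line is their median, and dotted lines mark a 2-fold difference. Every gene lies inside the middle 90% in both genotype comparisons, and Capn3 lies below it in both age comparisons.

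Capn3 was the calpain gene with the largest age difference, and it passed the filter at 1 FPKM through its libraries of 2 months alone, so a difference in that direction is partly set by the filter. In N101D, age cannot be told apart from sex either: Eif2s3y stood at 10.9 FPKM at 4 months and 0.122 at 2 months, and the age term of the additive fit includes that comparison. Capn3 stood at 0.199 FPKM at 4 months and 1.35 at 2 months in N101D, and at 0.175 FPKM at 4 months and 1.38 at 2 months in WT. The FPKM at 2 months thus exceeded that at 4 months by 6.81-fold in N101D and 7.87-fold in WT. The log2 ratio of FPKM, 4 over 2 months, was -2.77 in N101D (95% counting interval -4.01 to -1.77) and -2.98 in WT (-4.50 to -1.81). Reads per 1 kb of effective length were few, 10.5 and 6.14 in N101D and WT at 4 months against 33.3 and 69.1 in N101D and WT at 2 months.

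On the log2(FPKM + 1) scale the Capn3 difference was -0.97 in N101D and -1.02 in WT, so that WT passed the 2-fold mark and N101D stayed short of it, both by a narrow margin. With quantile normalization the differences were -1.17 in N101D and -1.09 in WT, and both passed. For lower values at 4 months the background was 1.10% of 11264 genes in N101D and 0.479% in WT. With totals made equal without the crystallins the N101D difference was -0.76. With a pseudocount of 0.1 the differences were -2.28 in N101D and -2.43 in WT, and 2.15% and 1.29% of genes were then at least 2-fold lower in N101D and WT. Genes beside Capn3 on the chromosome did not show its pattern: Ganc, which encodes a glucosidase and whose span holds other listed loci, stood at 1.60 and 1.91 FPKM in N101D and WT at 4 months and 1.55 and 2.04 in N101D and WT at 2 months. Zfp106, on the other side, ranged from 12.4 to 14.6 FPKM.

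The other calpain genes had smaller age differences, and the directions of some depended on scaling. Capn1 and Capns1 in WT and Capn2 in N101D kept their direction under every alternative that kept them. Capns1 differed by -0.14 in N101D (105 FPKM at 4 months, 116 at 2 months) and by 0.20 in WT (115 at 4 months, 100.2 at 2 months). Capn1 differed by 0.16 in N101D and -0.23 in WT, and Capn2 by 0.10 and -0.02. The shared Cast,Erap1 locus differed by 0.04 in N101D and -0.11 in WT. The medians of all genes were 0.15 in N101D and -0.01 in WT. With totals made equal without the crystallins, which moved the median of all genes in N101D to 0.51, Capns1 stood at 0.34 in N101D and 0.23 in WT, Capn2 at 0.57 and 0.01, and Capn1 at 0.51 and -0.22. With quantile normalization Capn1 stood at -0.05 in N101D and -0.24 in WT. None of these 3 genes was 2-fold different between ages, which is near the background of 6.31% of genes in N101D and 1.15% in WT. Of all genes 5.21% were 2-fold higher at 4 months in N101D and 0.675% in WT.

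Lens fiber markers were also mostly lower at 4 months. Their median difference, 4 minus 2 months, was -1.01 in N101D, with 8 of 9 lower, and -0.45 in WT, with 7 of 9 lower. The medians over all genes were 0.15 in N101D and -0.01 in WT. In WT the lower markers include Lim2 and Gja3, each at only -0.01. Bfsp1, which encodes the beaded filament protein filensin, was instead higher at 4 months, by 0.59 in N101D and 0.57 in WT. Skeletal muscle markers, relevant because muscle is rich in Capn3, summed to 9.28 FPKM in N101D lenses and 9.51 in WT lenses at 4 months, against 7.88 in N101D and 6.58 in WT at 2 months. The 5 of them that reached 1 FPKM in a library had a median age difference of 0.12 in N101D and 0.29 in WT. In each genotype 4 of these 5 were higher at 4 months. The lower one was Ckm, the muscle creatine kinase gene. Ckm stood at 3.23 FPKM in N101D at 4 months against 3.44 at 2 months, and at 2.86 against 2.90 in WT. Lens epithelium markers had a median age difference of 0.24 in N101D and -0.30 in WT, and retina neuron markers -0.06 and 0.69. Pigmented tissue, smooth muscle, leukocyte and vessel markers had medians of 2.04, 1.45, 1.23 and 1.47 in N101D, against -0.23, 0.25, -0.20 and -0.05 in WT. Blood genes had medians of -0.28 and -2.80, and cornea and conjunctiva markers 2.63 and 0.48. These marker differences were not recomputed with totals made equal without the crystallins, which moved the median of all genes in N101D to 0.51. Directions and counts of the markers in N101D may thus depend on scaling. The part of these tissues in the Capn3 values was not tested.

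**Figure D3:**
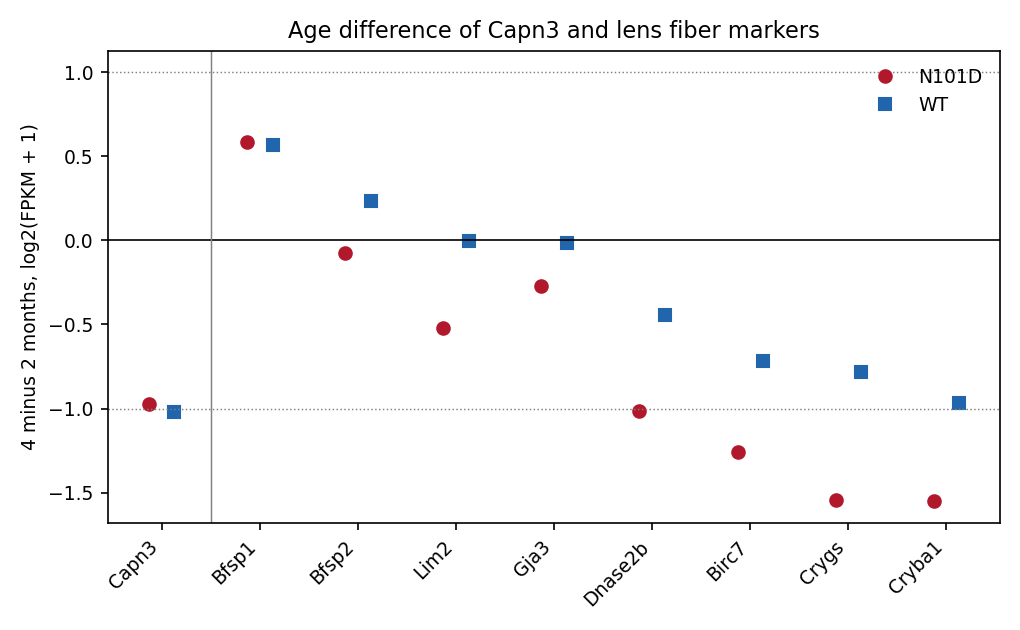
Difference of 4 minus 2 months on the log2(FPKM + 1) scale (vertical axis) for Capn3 and for 8 lens fiber markers, as red circles for N101D and blue squares for WT; each point compares single libraries and dotted lines mark a 2-fold difference. Capn3 lies at -0.97 in N101D and -1.02 in WT, and the markers run from -1.55 to 0.59.

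Because Capn3 was the calpain whose level differed most, the sequence before its starts is shown. RefSeq (GRCm38.p6) gives 2 starts for the gene, 13316 bases apart on the plus strand of chromosome 2, and the FPKM of the locus does not tell transcripts of one from those of the other. Each line below holds the 250 bases before a start, 5′ to 3′, with matches to TGCTGA on either strand in capitals. TGCTGA is the core of elements bound by Maf transcription factors, which act in lens fibers. The upstream window is chr2:120463343-120463592 and the downstream window chr2:120476659-120476908.
Capn3 upstream start: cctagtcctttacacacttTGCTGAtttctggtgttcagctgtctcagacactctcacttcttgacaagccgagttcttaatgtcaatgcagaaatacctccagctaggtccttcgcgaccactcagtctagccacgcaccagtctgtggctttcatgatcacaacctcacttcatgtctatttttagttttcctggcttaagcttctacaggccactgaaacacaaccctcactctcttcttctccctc
Capn3 downstream start: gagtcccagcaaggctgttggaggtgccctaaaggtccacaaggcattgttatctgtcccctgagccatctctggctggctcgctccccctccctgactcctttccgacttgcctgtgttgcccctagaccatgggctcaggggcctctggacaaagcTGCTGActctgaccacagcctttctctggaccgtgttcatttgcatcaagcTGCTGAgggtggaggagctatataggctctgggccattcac

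The upstream window held 1 match and the downstream window 2, and neither held TATAAA on either strand. Only these exact letters were sought, so variants such as the tatata near the end of the downstream window were not counted. Of 32851 RefSeq windows of this length, 16.1% held TGCTGA and 12.4% held TATAAA on either strand. The window before Capn2 held 1 match, and those before every listed start of Capn1, Capns1 and Cast held none. The C and G content was 46.8% and 57.6% before the upstream and downstream Capn3 starts, 62.8% before Capn2 and 46.4% before Capns1, against a median of 52.4%. Such matches are a description of the letters and were not tested against the levels. The builds differ, so the starts were not placed within the listed Capn3 locus.

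The additive limma fit over all 4 libraries, with age and genotype as terms, was the one test that the design allowed. It has 1 residual degree of freedom and takes each age as a replicate of the other, so any dependence of a genotype difference on age counts as spread. For genotype, 0% of 11264 genes passed an adjusted p of 0.05, and 118 had an unadjusted p under 0.05. The genotype estimates (limma, N101D minus WT) were 0.05 ± 0.19 (SE) for Capn1, -0.08 ± 0.15 for Capn2, 0.01 ± 0.24 for Capn3 and 0.04 ± 0.17 for Capns1, each at an adjusted p of 1.00.

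For age, no gene passed either (0% of 11264), and 1075 had an unadjusted p under 0.05. Capn3 had the largest age estimate of the 4 genes, 4 minus 2 months, of -0.996 ± 0.24 (SE; limma, unadjusted p = 0.0105, adjusted p = 0.417), with the same direction in both genotypes. Capn3 entered this test through its libraries of 2 months alone, so the test is no independent support for the age difference. Its adjusted p ranged from 0.151 to 0.58 over the alternatives in which it could be fitted. Age estimates were -0.04 ± 0.19 for Capn1, 0.04 ± 0.15 for Capn2 and 0.03 ± 0.17 for Capns1. A missed threshold with these libraries does not show that levels were equal.

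Profiles over the 4 libraries were compared with those of genes at 5 FPKM or more in every library, by the distance between centred log2(FPKM + 1) values. For Capn3 this scale compresses the FPKM ratio between ages to about 2-fold, so likeness to genes with higher FPKM depends on the pseudocount and is not likeness in FPKM ratio. On it 4 of 4443 genes lay within 0.2, and the nearest were Col4a5, a collagen gene of the lens capsule (distance 0.13; 32.5 and 30.0 FPKM in N101D and WT at 4 months, 64.3 and 58.4 in N101D and WT at 2 months), and Cryab, the alpha B crystallin gene (0.15). Sgpl1, which encodes a sphingolipid lyase, followed (0.19). The other calpain genes had more genes near them, 550 genes within 0.2 for Capn1, 1234 for Capn2 and 682 for Capns1. The nearest were Epb4.1l3, Cant1 and D19Wsu162e for Capn1, Ubqln1, the joined locus Gm2058,Ube2h and Spin1 for Capn2, and Hist2h3c2-ps, Rbm18 and Crebzf for Capns1. With 4 libraries such likeness is a description.

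Beyond these genes, 11 further members of the calpain family were listed, and 5 of them reached 1 FPKM in a library. Capn7, an atypical calpain without the calcium-binding end of the classical ones, was highest, at 8.75 FPKM in N101D lenses and 10.2 in WT lenses at 4 months, and 12.0 in N101D and 11.2 in WT at 2 months. Capn10, another atypical member, stood at 3.45 and 4.01 FPKM in N101D and WT at 4 months and 4.44 and 4.15 in N101D and WT at 2 months. Capn5 stood at 2.75 and 2.30 FPKM in N101D and WT at 4 months and 1.84 and 2.04 in N101D and WT at 2 months. Capn10 stood above Capn1 and Capn5 below it in every library, and Capn7 lay between Capn1 and Capn2. The loci of Capn5, Capn7, Capn10 and Solh are each overlapped by another listed locus, so their values are less certain.

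Solh, the older symbol of Capn15, stood at 2.97 FPKM in N101D lenses and 2.12 in WT lenses at 4 months, and 1.46 in N101D and 1.80 in WT at 2 months. Its difference of 0.69 between the ages in N101D was the largest of the 5 in that comparison. Capn6, whose protein lacks the catalytic cysteine, was listed at 0.664 FPKM in N101D lenses and 1.09 in WT lenses at 4 months, and at 0.353 in N101D lenses and 1.21 in WT lenses at 2 months. Capn6 was thus lower in N101D at both ages, by -0.33 and -0.71 at 4 and 2 months. At 4 months its 95% counting intervals overlapped, 0.463 to 0.923 FPKM in N101D and 0.771 to 1.49 in WT. At 2 months it had only 8.68 reads per 1 kb of effective length in N101D. Capn6 lies on the X chromosome, and genotype at 2 months cannot be told apart from sex. None of the 5 was 2-fold different in any of the 4 comparisons, in which 0.62% to 6.31% of all genes were, so a count of 0 among 5 is near the background. Their median genotype differences were -0.17 at 4 months and -0.10 at 2 months, against 0.03 and -0.09 over all genes, and their median age differences 0.30 in N101D and -0.04 in WT, against 0.15 and -0.01.

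The other 6 stayed under 1 FPKM. Capn8 and Capn9, calpains of the digestive tract, reached at most 0.124 and 0.0533 FPKM. Capn11, known from testis, reached 0.721 FPKM in N101D at 2 months and at most 0.0558 in the other libraries. Capn13 and Capns2 reached 0.0182 and 0.115 FPKM and were listed at 0 in 2 libraries each, and Capn12 was listed at 0 in all 4. The loci of Capn12 and Capns2 are each overlapped by another listed locus, so their low values are less certain.

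**Figure D4:**
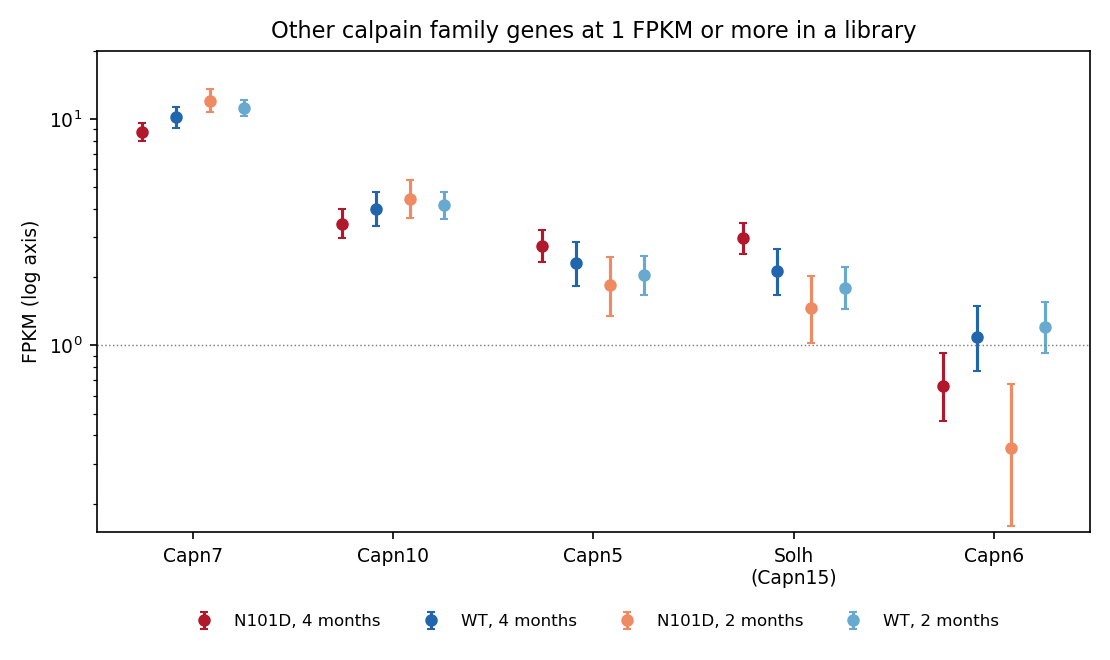
FPKM (log axis) of the 5 other calpain family genes that reached 1 FPKM in a library; points are single libraries, bars are 95% Poisson counting intervals for reads on 1 kb of effective length, and the dotted line marks 1 FPKM. Capn7 lies between 8.75 and 12.0 FPKM, and Capn6 is lower in N101D than in WT at both ages, with overlapping intervals at 4 months.

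Genes of proteins that calpains are known to cut were set beside the proteases. Of 16 on the list 15 had usable values, and Mip, the fiber water channel gene, had status FAIL in every library. Between genotypes none of the 15 was 2-fold different at either age, which is near the background of 0.62% of all genes at 4 months and 4.04% at 2 months. At 4 months their median was -0.13, with Crybb3 (-0.39) and Cryba1 (-0.36), genes of beta crystallins, lowest, and Tln1, the talin gene (0.47), highest. At 2 months the median was -0.02, with Tln1 (-0.54) and Spnb2, a spectrin gene (-0.41), lowest and Crybb3 (0.28) and Cryba1 (0.22) highest. Crybb3, Cryba1 and Tln1 thus stood at the ends of the list at both ages, on opposite sides. At 2 months genotype cannot be told apart from sex, and the list was not recomputed with other scalings.

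Between ages the substrate genes had a median of -0.27 in N101D and -0.20 in WT. At least 2-fold lower at 4 months were 3 of 15 in N101D and 1 of 15 in WT, against 1.10% and 0.479% of all genes. Crybb3 (-1.65) and Cryba1 (-1.55) were lowest in N101D, and Crybb3 stood at -0.98 in WT. Tln1 (0.90) and Bfsp1 (0.59) were highest in N101D, and Bfsp1 (0.57) and Bfsp2, its beaded filament partner (0.23), in WT. Vim, the vimentin gene, ranged from 787 to 806 FPKM over the 4 libraries. The median over all genes was 0.15 in N101D and -0.01 in WT, so the list's median lay below it in both genotypes. The list was not recomputed with totals made equal without the crystallins, which moved the median of all genes in N101D to 0.51. Directions and counts of the list in N101D may thus depend on scaling, and age in N101D cannot be told apart from sex.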

How the data were processed

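RNA from mouse lenses was sequenced as 1 library per group, so no replicate spread was measured. The authors deposited FPKM per locus with a status; per the submitters' processing notes, reads went through CASAVA, TopHat 1.2.0, Cufflinks 1.0.3 and Cuffdiff on mm9. The sources used here name neither the annotation nor the strand setting.

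The calpain genes, the gene lists and the tests were chosen with earlier results of these data known. The loci are listed along each chromosome in several blocks. The last block, 20744 of 44597 loci and of unclear annotation, was left out of the choice of locus. It entered only the alternative in which all loci of a symbol were summed. For each symbol the remaining locus with the highest mean FPKM was used, and values with status FAIL were taken as missing. Genes that reached 1 FPKM in a library were kept (11311). Differences were taken on log2(FPKM + 1), and 2-fold marks a difference of 1 on that scale. The additive fit used limma 3.58.1 in R 4.3.3 with an intensity trend, and Benjamini-Hochberg adjustment over 11264 genes; it was tested on simulated data. Genes named outside the calpain family were the 3 nearest profiles, and the 2 highest and 2 lowest of the substrate list, of which 1 gene is not reported here. Neighbours, Vim and single marker genes were named after their values were seen.

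Depth was read from the spacing of low FPKM values; 89.0% to 95.9% of the values used came out whole within 0.05. Counting intervals are 95% exact Poisson for levels and exact binomial for ratios, take an effective length of 1 kb, and cover counting error only. Alternatives were another pseudocount, other filters, scalings and summing of loci.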

Additional observations from a re-analysis of the deposited data

Results flagged for a closer look

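Several calpain genes differed between N101D and WT in one direction at 4 months and in the other at 2 months; with 1 library per group these differences between ages were not tested. The genotype difference at 4 months minus that at 2 months, on the log2(FPKM + 1) scale, was 0.40 for Capn1, 0.0449 for Capn3 and -0.34 for Capns1. It was 0.28 for Capn5, -0.29 for Capn7, -0.25 for Capn10 and 0.53 for Solh. In other genes the age difference had opposite signs in the genotypes, which was not tested either: the difference in N101D minus that in WT was 0.13 for Capn2, 0.15 for the shared Cast,Erap1 locus and 0.38 for Capn6. All of these stayed below 2-fold, and the opposite signs depended on scaling for several genes. With equal totals without crystallins Capns1 differed between genotypes by -0.16 at 4 months and -0.27 at 2 months. With quantile normalization the Capn3 values were 0.10 at 4 months, 0.18 at 2 months, and the Capn1 values 0.20 and 0.00. The N101D library of 2 months, which differs from the others in sex-linked and pigmented tissue genes, enters every one of them, and its part in them was not tested.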

How the results depend on the processing

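The number of genes at least 2-fold different depended on the settings, and the cause was not tested. For N101D against WT at 4 months it was 70, but 190 with a pseudocount of 0.1, 40 with a filter at 5 FPKM and 119 with all loci of a symbol summed. For N101D against WT at 2 months it was 456, but 884 with a pseudocount of 0.1, 234 with a filter at 5 FPKM, 779 with equal totals without crystallins and 227 with status OK only. For 4 against 2 months in N101D it was 711, but 1445, 404, 1492 and 346 under these same 4 settings. For 4 against 2 months in WT it was 130, but 346 with a pseudocount of 0.1 and 81 with status OK only. The median difference of the calpain genes under equal totals was -0.39 for genotype at 2 months and 0.43 for age in N101D, against -0.08 and -0.02 as reported. The additive limma fit called 0 genes for genotype and for age, but 61 and 157 with equal totals. With equal totals the prior degrees of freedom were infinite, against 3.73 in the main fit. Each gene's variance was then taken wholly from the trend over all genes, so these 2 counts are not comparable with the others. For age the additive fit called 1 gene each with quantile normalization (Crygf), with loci summed (Col4a3) and without a genotype term (Crygf). Capn3 kept its direction with age in both genotypes under every alternative that kept it. That direction is partly set by the filter, which Capn3 passed through its libraries of 2 months alone. Because Capn3 has a single locus, summing loci returned its main values, as did removing the filter, so neither could change its direction. Capn1 and Capn3 drop out with a filter at 5 FPKM or status OK only. Among small differences, signs turned for Capn2 at 4 months (0.04, quantile normalization), Capn1 with age in N101D (-0.05, quantile normalization) and Capn2 with age in WT (0.01, equal totals). No paired analysis was possible because each group holds 1 library and the labels give no replicate numbers, and for the same reason no library could be left out. Low FPKM of Capn3 at 4 months rests on few reads, which limits the size of its ratio.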
